A study of Mus musculus with 7 samples.

Results

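The Wnt pathway targets and Tcf factors examined here are 10 genes, selected by symbol as the rows Tcf7l2, Tcf7l1, Lef1, Axin2, Apcdd1, Nkd1, Notum, Wif1, Lgr5 and Rnf43 among the 22880 genes of the deposited table. All 10 were measured in every sample. RNA was taken at postnatal day 14 from optic nerves of 4 control mice (CT, FASN lox/lox without Cre) and 3 mutant mice (cMU, olig2cre FASN lox/lox), all on a C57Bl/6 background, with both nerves of a mouse in 1 sample. By these labels both groups carried the floxed Fasn alleles, although the methods of the study also allow control mice with 1 floxed and 1 wild-type allele, and only mutants carried Cre, which is driven by Olig2 regulatory elements and recombines cells of the oligodendrocyte (OL) lineage. By the methods, the floxed mice were of mixed origin with at least 3 generations of backcrossing to C57Bl/6, and the study used both sexes. An effect of the Cre allele itself and an effect of losing Fasn cannot be told apart in this design.

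In the canonical Wnt pathway, a secreted Wnt ligand binds Frizzled and Lrp receptors at the cell surface, beta-catenin escapes degradation by the Axin and Apc complex, and it then joins DNA-bound factors of the Tcf/Lef family to switch on target genes. Several targets encode proteins that shut the pathway down again, so their RNA is widely used as a readout of its activity. In white matter, Tcf7l2 is known from newly formed OLs, in which it is needed for differentiation, while Wnt signaling in endothelial cells maintains the blood-brain barrier. Optic nerve RNA comes from OLs, their progenitors, astrocytes, microglia, vessels and meninges together, and in such bulk samples fewer cells of a type and less RNA per cell cannot be told apart.

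No member passed the threshold of an adjusted p under 0.05 (limma-trend on log2(FPKM + 0.5), Benjamini-Hochberg adjustment over 13866 genes), whereas 2.62% of all tested genes did. At an unadjusted p under 0.05 there were 3 members, Wif1, Apcdd1 and Axin2, against 24.4% of all tested genes. Their mutant means were at 176%, 125% and 131% of control, and that of Notum, whose groups overlapped, at 143%. Tcf7l2, Nkd1, Rnf43 and Lgr5 had mutant means of 81.0% to 94.0% of control with overlapping groups. Deviations from the group means correlated positively across genes in same-numbered control and mutant samples. For number 1 the correlation (0.168) was below that of control sample 4 with mutant sample 1 (0.205). The pairing was thus read from the tested values themselves, and the labels do not explain the numbers. In a fit that took it as a replicate block Axin2 and Wif1 passed (adjusted p = 0.0272 and 0.0333, limma-trend), where 8.36% of all tested genes passed. The differences in that fit come from 3 pairs, without a contribution of control sample 4.

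FPKM (fragments per kilobase of gene length, scaled to library size) is scaled for length, so that levels can be compared between genes. In control nerves Apcdd1 was the most abundant member, at 40.6 ± 5.11 FPKM (SD, n = 4), and its samples lay above those of every other member. Tcf7l2, Nkd1, Axin2 and Tcf7l1 followed at means of 16.6, 14.8, 13.8 and 10.1 FPKM, and each overlapped the next in this order. Rnf43 and Wif1, at 3.16 and 2.84 FPKM, overlapped each other, as did Lef1 and Notum at 1.80 and 1.69 FPKM. Lgr5 was lowest, at 0.771 FPKM. In mutant nerves Axin2 stood second at a mean of 18.1 FPKM, above Tcf7l2 at 15 FPKM without overlap, and Wif1 at 4.98 FPKM stood above Rnf43 at 2.83 FPKM without overlap. About 34 to 90 reads lay behind each Lgr5 value and 69 to 179 behind each Notum value, but 3112 to 4714 behind each Apcdd1 value, so that the low members are the least precise.

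**Figure D1:**
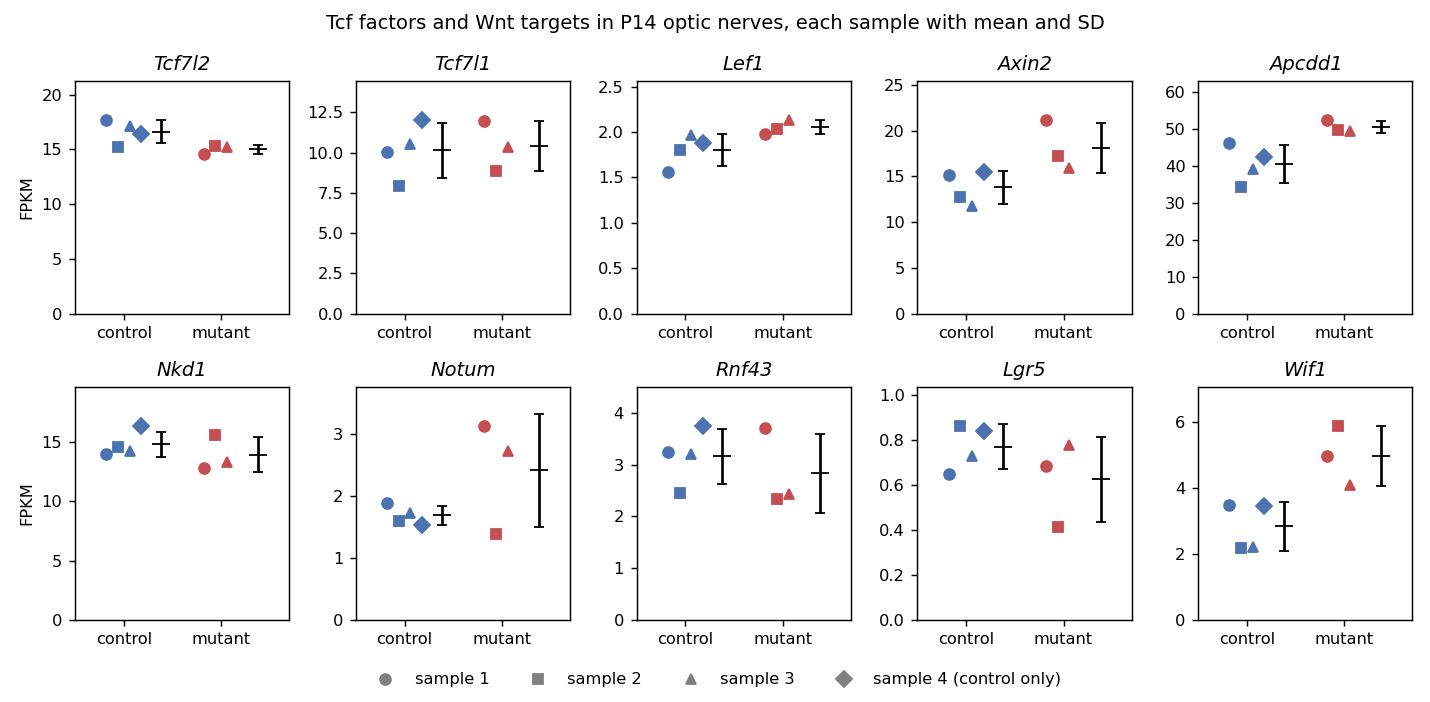
FPKM of the 10 genes in each control (blue) and mutant (red) sample, with symbols for the sample number and black bars for the mean and SD. Every mutant sample lies above every control sample for Lef1, Axin2, Apcdd1 and Wif1, and the groups overlap for the other 6 genes.

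To show regulatory sequence of some members, the 250 bases before a RefSeq start site are given for Tcf7l2, the factor, and for Axin2 and Wif1. The last named passed only in the blocked fit, as did Axin2, and its pairing was read from the tested values. They are on the plus strand of GRCm38, at chr19:55741560-55741809, chr11:108920099-108920348 and chr10:121033754-121034003. Capitals mark CTTTG or its reverse complement CAAAG, the 5 central bases of the site that Tcf/Lef factors bind.
Tcf7l2: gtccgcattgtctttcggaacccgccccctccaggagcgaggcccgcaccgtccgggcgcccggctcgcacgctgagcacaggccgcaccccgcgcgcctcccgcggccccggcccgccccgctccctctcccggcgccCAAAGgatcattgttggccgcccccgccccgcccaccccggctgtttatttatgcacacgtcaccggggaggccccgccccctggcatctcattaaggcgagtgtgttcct
Axin2: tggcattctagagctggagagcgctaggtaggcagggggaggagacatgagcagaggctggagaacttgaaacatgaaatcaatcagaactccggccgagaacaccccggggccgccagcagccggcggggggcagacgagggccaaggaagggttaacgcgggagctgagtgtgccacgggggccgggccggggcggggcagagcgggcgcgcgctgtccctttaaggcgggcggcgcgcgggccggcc
Wif1: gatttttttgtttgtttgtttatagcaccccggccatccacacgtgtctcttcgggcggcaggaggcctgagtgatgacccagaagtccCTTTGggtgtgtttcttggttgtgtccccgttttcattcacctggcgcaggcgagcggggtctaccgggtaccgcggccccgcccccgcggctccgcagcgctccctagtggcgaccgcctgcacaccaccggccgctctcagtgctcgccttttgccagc

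The Tcf7l2 window shown held 1 match, with its first base at -111 from the start site, and the Wif1 window 1 match at -161, whereas that of Axin2 held none. The window of another Tcf7l2 start site, from 55895071 to 55895370, held 1 match at -14. RefSeq windows (250 bases before to 50 after a start) were read for 7 members, with 12 start sites, and 8 of these windows held a match on either strand. Of all 32851 windows in the table, 53.9% did. The member windows are not independent, since Lef1, Tcf7l2 and Rnf43 had more than 1 each. The Lef1 windows from 131110047 and from 131110073 overlap and hold the same matches. No window of Axin2, Nkd1 or Rnf43 held a match. Windows on chromosome 18, where Apcdd1 lies, were left out of the member counts but kept among all windows. The longer forms CTTTGAT and CTTTGAA, searched first, were in 8.65% of all windows on either strand and in 0 of the 12. These are matches of letters in a short window and no measurement of binding.

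Tcf7l2, the Tcf factor of newly formed OLs, is on the plus strand of chromosome 19 between 55741810 and 55933654 (ENSMUSG00000024985, build GRCm38, as for all members). Control samples 1 to 4 had 17.71, 15.27, 17.10 and 16.37 FPKM, and mutant samples 1 to 3 had 14.57, 15.34 and 15.20 FPKM. Mutant samples lay close together at the lower edge of the control range, with control sample 2 between them. The log2 fold change was -0.14 (standard error 0.0712, 95% interval -0.30 to 0.02, adjusted p = 0.268 from limma-trend). The 5 tested genes whose profile over the 7 samples was most like that of Tcf7l2, by the root mean square difference of log2(FPKM + 0.5) centred on each gene's mean, were Ppp2r1a, Pcyt1a, Apbb2, Arhgef7 and Prox2, with differences of 0.0259 to 0.0303.

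Tcf7l2 was set beside 10 markers of newly formed OLs, a list that had a median log2 fold change of -0.40. Of these markers, 4 were lower past the adjusted threshold (Gpr17, Tmem2, Rras2 and Cnksr3), and the mutant samples were below all controls in 8. Among all tested genes 2.62% passed in either direction, and 8.26% had every mutant sample below every control. Relative to the mean log2 level of the list, Tcf7l2 was at 0.02, -0.13, 0.04 and 0.06 in the control mice, against 0.29, 0.28 and 0.26 in the mutants. All mutant values of this difference were above all control values, since the markers were lower in mutant nerves by more than Tcf7l2 was. With 4 samples against 3 an exact two-sided permutation test can give no p below 0.0571, which was the p here (adjusted p = 0.57 over 10 comparisons of a member with a list, all chosen after the values had been seen). Of the OL lists, only that of newly formed OLs was compared in this way. Relative to control, Tcf7l2 was at -0.18, -0.11 and -0.12 in mutant samples 1 to 3 (log2 scale). The list of mature OL markers was at -0.25, 0.17 and -0.12, so that Tcf7l2 was not above it throughout. The list of OL progenitor markers was at -0.43, -0.30 and -0.23, below Tcf7l2 in each mutant sample.

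The remaining Tcf/Lef factors did not pass either. Tcf7l1 (ENSMUSG00000055799, chromosome 6, 72626378 to 72789254, minus strand), which acts mainly as a repressor of Wnt targets, had 10.07, 7.932, 10.55 and 12.04 FPKM in control samples and 11.99, 8.872 and 10.35 FPKM in mutant samples. The groups covered nearly the same range (log2 fold change 0.04, 95% interval -0.29 to 0.37, adjusted p = 0.898 from limma-trend), and the sign turned with the scaling. Lef1 (ENSMUSG00000027985, chromosome 3, 131110471 to 131224356, plus strand), a factor expressed by barrier endothelium, had 1.562, 1.806, 1.966 and 1.876 FPKM in control samples and 1.984, 2.033 and 2.135 FPKM in mutant samples. The groups were separate, though the nearest samples, control 3 and mutant 1, were almost equal. Its log2 fold change was 0.15 (95% interval -0.10 to 0.40, adjusted p = 0.426, limma-trend).

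Of the target genes, Axin2 encodes a scaffold of the beta-catenin destruction complex and is induced by Wnt signaling in most tissues. It lies on chromosome 11 from 108920349 to 108950783 on the plus strand (ENSMUSG00000000142). Control samples had 15.17, 12.73, 11.82 and 15.54 FPKM, and mutant samples 21.20, 17.26 and 15.98 FPKM. Mutant sample 1 was the highest, and mutant sample 3 was only just above control sample 4. The means were 13.8 ± 1.82 (SD, n = 4) and 18.1 ± 2.72 (SD, n = 3). The log2 fold change was 0.38 (standard error 0.125, 95% interval 0.10 to 0.66, adjusted p = 0.119 from limma-trend), and under the replicate block 0.44 with a standard error of 0.0775 (limma-trend adjusted p = 0.0272). Without mutant sample 1 it was 0.27.

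Apcdd1 encodes a membrane-bound inhibitor that binds Wnt ligands and Lrp receptors, and is known from barrier endothelium and newly formed OLs. It lies on chromosome 18 from 62922327 to 62953195 on the plus strand (ENSMUSG00000071847). The control samples had 46.42, 34.33, 39.26 and 42.41 FPKM, and the mutant samples 52.58, 49.87 and 49.45 FPKM. Mutant samples were tightly grouped above a wider control range. The log2 fold change was 0.32 (standard error 0.0961, 95% interval 0.11 to 0.54, adjusted p = 0.0982 from limma-trend), with an adjusted p of 0.0560 under the replicate block.

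Wif1 encodes a secreted protein that binds Wnt ligands. It lies on chromosome 10 from 121033960 to 121100650 on the plus strand (ENSMUSG00000020218). Its level was 3.490, 2.176, 2.208 and 3.466 FPKM in the control mice, and 4.962, 5.885 and 4.081 FPKM in the mutants. Control samples fell into a lower pair (2 and 3) and a higher pair (1 and 4), both below the mutant samples. The means were 2.84 ± 0.743 (SD, n = 4) and 4.98 ± 0.902 (SD, n = 3). The log2 fold change of 0.73 (95% interval 0.30 to 1.16, adjusted p = 0.0726, limma-trend) was the largest of the members, and 1.38% of tested genes had a larger absolute value. Under the replicate block the estimate was 0.82 with a standard error of 0.163 (limma-trend adjusted p = 0.0333).

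Lef1, Axin2, Apcdd1 and Wif1 made up 4 of 10 members with every mutant sample above every control sample, which 12.9% of all tested genes showed. No member had all mutant samples below, as 8.26% of all tested genes did. Non-overlap in either direction was found in 21.1% of all tested genes. The median log2 fold change of the 10 members was 0.09, beside 0.048 over all tested genes.

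**Figure D2:**
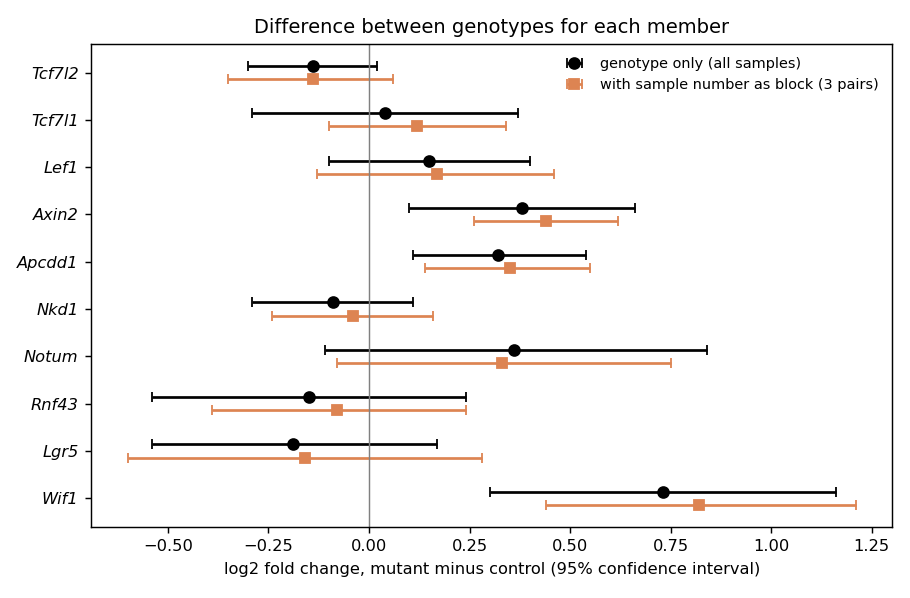
Log2 fold change, mutant minus control, of each member with its 95% interval from limma-trend, for genotype alone (black circles) and with the sample number as a block (orange squares). Intervals for Axin2, Apcdd1 and Wif1 lie above 0 in both fits, and those of the other 7 genes include 0.

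Notum and Nkd1 are feedback inhibitors, a secreted carboxylesterase that removes the lipid of Wnt ligands and a cytoplasmic protein that binds Dishevelled. Notum (ENSMUSG00000042988, chromosome 11, 120653788 to 120661175, minus strand) had 1.894, 1.595, 1.730 and 1.540 FPKM in control samples and 3.137, 1.391 and 2.738 FPKM in mutant samples. Mutant samples 1 and 3 were above all controls and mutant sample 2 below all of them. The log2 fold change was 0.36 (95% interval -0.11 to 0.84, adjusted p = 0.32 from limma-trend), and single mutant samples set its size. It was 0.65 without mutant sample 2 (adjusted p = 0.0364, limma-trend), 0.18 without mutant sample 1 (adjusted p = 0.686) and 0.26 without mutant sample 3 (adjusted p = 0.577). Nkd1 (ENSMUSG00000031661, chromosome 8, 88521344 to 88594887, plus strand) had 14.03, 14.63, 14.28 and 16.37 FPKM in control samples and 12.84, 15.60 and 13.36 FPKM in mutant samples. The groups overlapped (log2 fold change -0.09, 95% interval -0.29 to 0.11, adjusted p = 0.575, limma-trend), and the value was -0.17 to -0.035 with single samples left out.

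Rnf43 and Lgr5 act on receptor turnover. Rnf43 (ENSMUSG00000034177, chromosome 11, 87662722 to 87735539, plus strand), a ubiquitin ligase that removes Frizzled receptors from the membrane, had 3.247, 2.458, 3.203 and 3.746 FPKM in control samples and 3.707, 2.341 and 2.434 FPKM in mutant samples. Mutant sample 1 was among the highest of all samples and the other mutants were the lowest (log2 fold change -0.15, 95% interval -0.54 to 0.24, adjusted p = 0.626, limma-trend). It was -0.33 without mutant sample 1 and -0.048 without mutant sample 2. Lgr5 (ENSMUSG00000020140, chromosome 10, 115450311 to 115587780, minus strand), a receptor for R-spondins, had 0.6501, 0.8632, 0.7315 and 0.8409 FPKM in control samples and 0.6828, 0.4122 and 0.7797 FPKM in mutant samples. Only mutant sample 2 lay outside the control range (log2 fold change -0.19, 95% interval -0.54 to 0.17, adjusted p = 0.489, limma-trend), and without it the value was -0.044. Lgr5 overlaps A930009A15Rik on the other strand, which had 3.40 FPKM in control and 2.58 FPKM in mutant nerves, and Tcf7l1, Lef1, Axin2, Notum and Rnf43 also overlap annotated genes of the other strand. Whether the counting used the strand is not given in the sources used here.

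The other genes of the pathway were counted in lists by role, which together held 107 tested genes, some of them in more than 1 list. Of these, 1 was higher and 0 were lower past the adjusted threshold in limma-trend (0.935%, against 2.62% of all tested genes), 34 had an unadjusted p under 0.05 (31.8%, against 24.4%), and the median log2 fold change was 0.15. The gene that passed was Id2, a helix-loop-helix inhibitor in the list of other reported targets, which rose. Its mean was 42.5 ± 3.09 FPKM (SD, n = 4) in control nerves and 60.1 ± 5.12 FPKM (SD, n = 3) in mutant nerves, a difference of 0.49 on the log2 scale with a standard error of 0.0796 (limma-trend adjusted p = 0.0253). With the replicate block 18 pathway genes passed, all of them higher (16.8%, against 8.36% of all tested genes). The pairing behind this and the blocked calls below was read from the tested values themselves.

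Surface and secreted components had higher medians than the components inside the cell. Of 18 tested Wnt ligands, R-spondins and secretion genes, 0 passed (8 at an unadjusted p under 0.05), and the median was 0.38. The most abundant of them, Wls, which carries Wnt ligands to the cell surface, had 66.1 ± 8.93 FPKM (SD, n = 4) in control and 84.1 ± 14.5 FPKM (SD, n = 3) in mutant nerves. Next in mean level over all samples, and close to each other, were Porcn, the acyltransferase of Wnt ligands, at 14.8 and 13.4 FPKM in control and mutant nerves, and Wnt6, a ligand, at 12 and 18 FPKM. The mutant mean of Wnt6 rested on mutant sample 1, at 26.37 FPKM, with 12.24 and 15.39 FPKM in the others. With the block Wls, Wnt5a, Wnt16 and Rspo3 passed, with log2 fold changes of 0.36, 0.68, 0.95 and 0.91.

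Among 21 tested receptors and coreceptors 0 passed (12 at an unadjusted p under 0.05), the median log2 fold change was 0.46, and 20 had a positive value. Every mutant sample was above every control sample in 11 of them. Among all tested genes 12.9% showed this, and 24.4% had an unadjusted p under 0.05. The most abundant were Ryk, Tspan12 and Adgra2. Ryk, a Wnt-binding pseudokinase, had 25.4 ± 0.715 FPKM (SD, n = 4) in control and 29.5 ± 1.05 FPKM (SD, n = 3) in mutant nerves, and Adgra2, a coreceptor for Wnt7 ligands in endothelium, 21.2 ± 4.47 and 31.4 ± 11.3 FPKM. The mutant mean of Adgra2 rested on mutant sample 1, at 44.49 FPKM, with 24.07 and 25.72 FPKM in the others. Tspan12, a partner of Fzd4, had a mean of 25.6 FPKM in both groups. With the block 7 receptor genes passed, where 8.36% of all tested genes did. These were Fzd1, Fzd6, Fzd7, Lrp6, Lgr4, Adgra2 and Reck, with log2 fold changes of 0.40 to 0.76.

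Of 9 tested extracellular inhibitors 0 passed (4 at an unadjusted p under 0.05), with a median of 0.40. Dkk3, Kremen1 and Sfrp1 were the most abundant, with log2 fold changes of 0.42, 0.40 and 0.65, and these and Trabd2b passed with the block. The medians of the ligand, receptor and inhibitor lists were 0.24, 0.28 and 0.24 without mutant sample 1. Of 23 tested cytoplasmic transducers 0 passed (1 at an unadjusted p under 0.05), with a median of 0.04. Ctnnb1, the gene of beta-catenin, had 347 ± 10.5 FPKM (SD, n = 4) in control and 394 ± 22.1 FPKM (SD, n = 3) in mutant nerves (adjusted p = 0.138, limma-trend), and Csnk1a1 and Tnks2, the next most abundant, had log2 fold changes of -0.02 and 0.02. Of 22 tested nuclear cofactors 0 passed (4 at an unadjusted p under 0.05), with a median of 0.01. Their most abundant genes, Aes, Ctbp1 and Hdac1, had log2 fold changes of -0.17, -0.18 and -0.26. Of the 19 other reported targets tested, Id2 passed (5 at an unadjusted p under 0.05), and the median was 0.13.

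**Figure D3:**
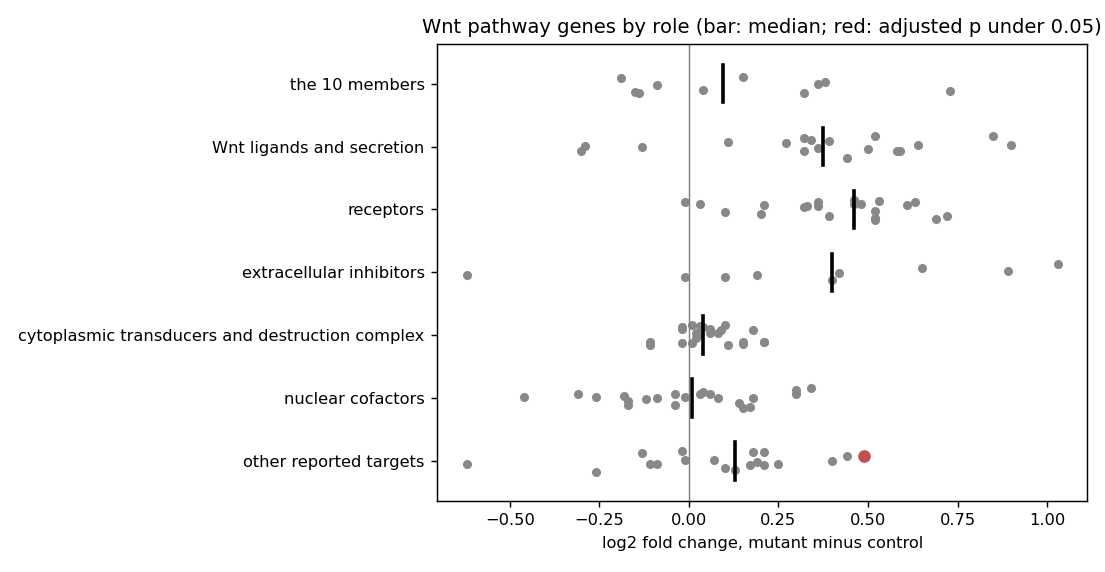
Log2 fold change, mutant minus control, of the 10 members and of the tested genes of 6 lists by role, 1 point a gene, with black bars for medians and red for an adjusted p under 0.05. Medians of ligands, receptors and extracellular inhibitors are 0.38, 0.46 and 0.40, and those of cytoplasmic transducers and nuclear cofactors are 0.04 and 0.01.

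Markers of several cell types moved with genotype beside these genes. Of 9 astrocyte markers, 4 were higher past the adjusted threshold (Slc1a2, Aldh1l1, Aldoc and Gja1), and the summed FPKM of the list was 2942 to 3386 in control and 3802 to 4658 in mutant samples. The sum of 10 endothelial markers was 192.6 to 225.5 FPKM in control and 236.5 to 266.1 FPKM in mutant samples, with 0 markers past the threshold (6 at an unadjusted p under 0.05, limma-trend). That of 9 markers of meningeal fibroblasts was 1773 to 2373 FPKM in control samples and 4440, 2278 and 2700 FPKM in mutant samples 1 to 3, with 0 past the threshold (6 at an unadjusted p under 0.05, limma-trend). The sum of 8 markers of OL progenitor cells was 220.9 to 232.8 FPKM in control and 175.1 to 209.0 FPKM in mutant samples, with Cspg4 and Neu4 lower past the threshold, and that of 10 markers of newly formed OLs was 1541 to 1728 and 1091 to 1334 FPKM. For 10 markers of mature OLs the sums were 56320 to 63830 and 41130 to 53420 FPKM, with Mag lower and Klk6 higher past the threshold, and 7 pericyte markers, 8 microglia markers and 8 neuron markers had medians of 0.19, 0.14 and 0.30 with 0 past the threshold (2, 3 and 1 at an unadjusted p under 0.05, limma-trend). No marker was at 0 in any sample. Among all tested genes 2.62% passed the threshold, and 24.4% had an unadjusted p under 0.05 (limma-trend).

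Relative to the mean log2 level of the astrocyte list, the mutant means were -0.09 for Axin2, -0.14 for Apcdd1 and 0.26 for Wif1, where the control mean is 0. Relative to the endothelial list they were 0.08, 0.02 and 0.43, and relative to the fibroblast list -0.22, -0.28 and 0.13. The groups overlapped in each of these 9 comparisons (exact two-sided permutation test, adjusted p = 0.57 to 0.914 over 10 comparisons). Mutant sample 1, the highest for Axin2, Apcdd1 and Notum, was also the highest for the fibroblast markers. The summed FPKM of the ligand, receptor and inhibitor lists was likewise highest in mutant sample 1, at 231.1, 305.3 and 154.8. These sums were lowest in control sample 2, at 118.7, 165.9 and 68.32, where the fibroblast sum was also lowest, at 1773. The part of these cell types in the results was not tested further.

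**Figure D4:**
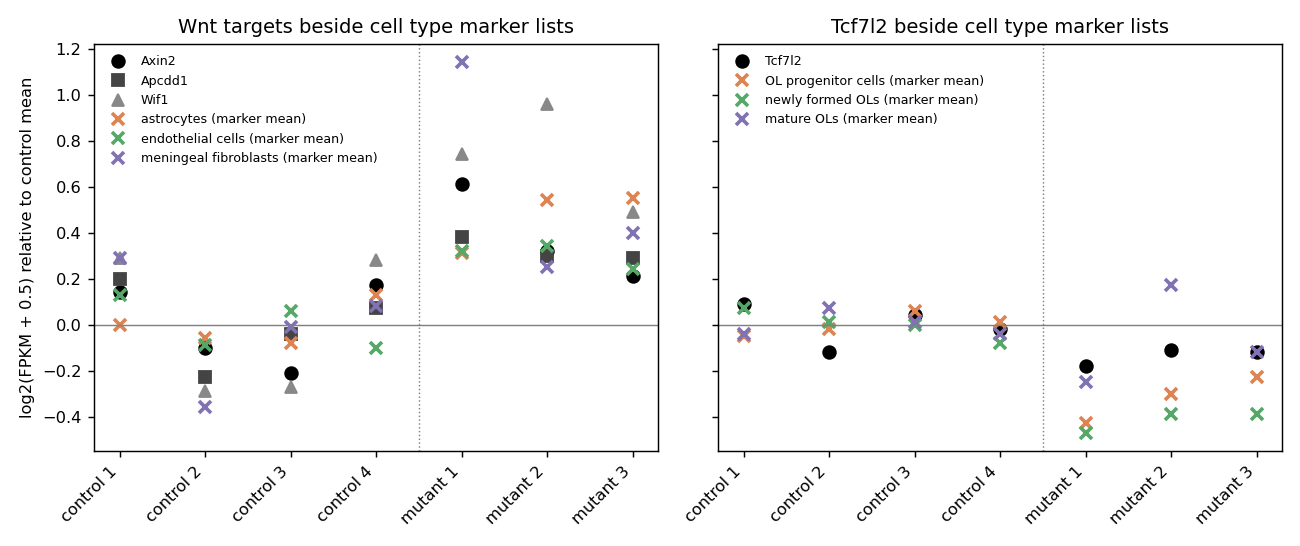
Mean log2(FPKM + 0.5) of single members and of cell type marker lists in each sample, relative to the control mean, for Axin2, Apcdd1 and Wif1 (left) and Tcf7l2 (right). Mutant values of the Wnt targets and of the astrocyte and endothelial lists are all above their control values, and Tcf7l2 lies above the markers of newly formed OLs in all 3 mutant samples. In mutant sample 2 it lies below the markers of mature OLs.

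As a check of the labels, Fasn was at 205 ± 25.1 FPKM (SD, n = 4) in control and 56.3 ± 11.3 FPKM (SD, n = 3) in mutant nerves. Among all tested genes, 363 passed with all samples (175 higher and 188 lower), and 6 to 909 with each sample left out in turn, so that this count rests on single samples.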

How the data were processed

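RNA-seq of P14 optic nerves was analysed for 4 control and 3 mutant mice, grouped and numbered by their labels. Per the labels and the study's methods, reads from a stranded mRNA kit were aligned by the authors with STAR 2.5.1b to GRCm38 and quantified with RSEM 1.2.22. The authors deposited, for each gene and sample, a normalized count (a signal: the estimated count divided by a size factor whose method is not given in the sources used here) and FPKM, a value per gene length and library size. The deposited table gives GC content as a fraction, and also holds the authors' fold changes and p-values, which were not used.

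The most frequent low normalized count was taken as 1 read. By it 78.8% to 83.6% of values of 0.5 to 10 reads were within 0.1 of a whole number, and estimated totals were 27452222 to 43462575 reads. This share was judged too low for count tests, which was a choice. A gene entered the test if 3 or more samples reached 0.5 FPKM. Genotype was tested alone on log2(FPKM + 0.5) in limma-trend (limma 3.58.1, R 4.3.3), and p-values were adjusted over all such genes by Benjamini-Hochberg. The authors used the generalized linear model of edgeR. The pseudocount of 0.5 understates changes of low genes. The fit and the read estimate were tested on simulated data.

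Deviations from the group means correlated across genes at 0.168, 0.409 and 0.27 in the 3 pairs of samples with the same number. Other pairs had -0.353 to 0.205, and the highest of these, control sample 4 with mutant sample 1, exceeded pair 1. From these values the numbers were taken to pair the samples, and a blocked fit was run. What a number stands for is not given in the labels.

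The members and lists were chosen with earlier results of these data known. Named are all members, Fasn, in each pathway list the genes past the threshold or else the 3 most abundant, marker genes past the threshold, and the 5 genes most like Tcf7l2. Genes named for a blocked call were chosen with their values in view. Alternatives covered the pseudocount, filter, scaling, variance model, the block and each sample left out. Promoter windows are from RefSeq on GRCm38.p6 and overlaps from GENCODE M21.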

Additional observations from a re-analysis of the deposited data

How the results depend on the processing

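Of the members, Tcf7l2, Lef1, Apcdd1, Nkd1, Lgr5 and Rnf43 kept their direction and stayed above the threshold in every alternative that gave a value (Lgr5 did not pass a filter at FPKM 1), but with single samples left out the sizes of 3 of them moved widely, from -0.29 to -0.044 for Lgr5, -0.33 to -0.048 for Rnf43 and -0.17 to -0.035 for Nkd1. The sign of Tcf7l1 turned with normalized counts (-0.037), with sample medians set equal (-0.044), without control sample 2 (-0.07) and without mutant sample 1 (-0.06), within a range of -0.07 to 0.14 over single samples left out; the cause was not tested. With the replicate block, 1159 genes passed (890 higher), with 2 members and 18 pathway genes, and it changed no other call of a member. Without a filter on low values, which tests more genes, 95 genes passed (33 higher and 62 lower) and 0 pathway genes. Scaling shifted the split of 175 higher and 188 lower genes towards lower, to 103 and 267 with normalized counts and to 117 and 283 with medians set equal. With each sample left out, which leaves fewer samples, 6 to 909 genes passed, 1 to 565 higher and 4 to 344 lower, with 0 to 1 members and 0 to 10 pathway genes. Without mutant sample 2 that member was Notum (0.65). The count of members with every mutant sample above every control cannot fall when a sample is removed. It was 4 to 5, beside 14.6% to 25.2% of all tested genes (25.2% where it was 5). Every mutant sample was below every control in 0 to 2 members, beside 9.47% to 12.3% of all tested genes (12.1% where it was 2). This alternative was chosen after seeing the data. The tests on counts (edgeR and DESeq2) were not run, by choice, since too few low values lay near whole reads. Low read numbers limit Lgr5, Notum and Lef1 most. The labels do not say what the sample numbers stand for.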
